A study of Mus musculus with 9 samples.

Results

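The histone mark H3K27me3 was examined over 10 genes of T-lineage identity, out of 21887 protein-coding genes of the mouse annotation. The genes were chosen by name, with earlier results of these data known. Bcl11b, Tcf7 and Lef1 encode transcription factors, and Cd3d, Cd3e, Cd3g, Lck, Thy1, Zap70 and Cd5 encode receptor components and signalling proteins of the T cell surface. Each gene was read as a window made of its mm10 span with 5 kb added on each side. For each library, the intervals that the authors called in the window, the percent of the window they covered and the height of the tallest interval summit were taken.

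The libraries came from bone marrow of female mice that had received transplants, and the lineage-negative, c-Kit-positive (LK) fraction, which holds blood stem and progenitor cells, was enriched with magnetic beads and used without culture. The RH groups came from C57BL/6 mice with 1 Dnmt3afl-R878H allele crossed with the Mx1-cre strain, and the WT groups from Dnmt3a+/+ C57BL/6 mice crossed with the same Mx1-cre strain, so that both genotypes shared the Cre. Each genotype was given metformin (MET) or vehicle (VEH) for 1 month, which gave 4 groups, RH MET, RH VEH, WT MET and WT VEH, of 2 libraries each. R878H is a missense change in Dnmt3a, the enzyme that methylates unmethylated DNA, and is the mouse counterpart of a change found in human clonal blood disorders. Mx1-cre is induced by interferon and is active in blood cells and in several other tissues. The labels do not say how many marrow cells in a library carried the recombined allele, nor whether the libraries of a group stem from different animals. The p-values below therefore cover library-to-library spread, and that spread may be technical.

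H3K27me3 is laid down by the Polycomb complex PRC2 and marks genes that are held silent, often as broad domains over start sites. T cells arise when progenitors leave the marrow for the thymus. Notch signals there induce Tcf7, Bcl11b then fixes the T cell fate, and Lef1 acts beside Tcf7. The CD3 chains, the kinases Lck and Zap70 and the surface proteins Thy1 and Cd5 form or tune the T cell receptor pathway later. In bulk chromatin, more cells with the mark and more mark per cell cannot be told apart.

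The libraries held 11620 to 16879 intervals, which covered 80.0 Mb in RH VEH 1 and 186 Mb in WT MET 2 as the lowest and highest values. RH VEH 1 also had the lowest median summit height, at 12, against 14 to 17 in the other 7 libraries. Among genes known to bear or lack the mark in blood cells, Hoxd11 was covered over 100% of its window and Pax6 over 79.7% to 84.8% in all 8 libraries while Actb and Gapdh, which every cell uses, were free of intervals throughout. The progenitor markers had mixed cover, and Gata2, a stem cell transcription factor, was covered over 72.2% to 92.9%. Kit, the receptor used for enrichment, was covered over 0% to 2.18% of its window in the 4 RH libraries and over 6.10% to 9.16% in the 4 WT libraries, without overlap. Of all windows with an interval, 75.7% had lower mean cover in RH. At an unadjusted p under 0.05 (exact permutation test, described below), 3.66% were lower in RH. Markers of other mature cells were mixed too: the B cell factors Pax5 and Ebf1 had an interval in all 8 libraries, with means of 60.9% and 13.3%, and Cd79a had none. Of the myeloid markers, Itgam had one in WT MET 1, and Ly6g and Csf1r had none.

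Of the 10 genes, 8 had an interval in all 8 libraries, against 29.9% of all protein-coding windows. Since the genes were chosen with earlier results known, this is a description and no test of the list. All 3 transcription factor genes and 5 of the 7 receptor and signalling genes, Cd3e, Cd3g, Lck, Thy1 and Zap70, were among the 8. Cd3d had an interval in 7 libraries, RH VEH 1 being the exception. Cd5, which encodes a surface protein that dampens T cell receptor signals, had none in any library, and 52.6% of all windows shared that state. Each library therefore called 8 or 9 of the 10 windows.

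The sequences before the start sites are shown because cover of the start differed between the transcription factor genes and most of the others. RefSeq promoters (GRCm38.p6, the build of mm10) were found for 9 of the 10 genes, Thy1 being the exception, and the 250 bases before the most upstream listed start were read. The dinucleotide searched was CG, which reads the same on both strands and cannot overlap itself, and it is set in capitals. The 4 windows printed lie wholly outside the gene spans: Lef1 at chr3:131110047-131110296 on the plus strand, Zap70 at chr1:36761548-36761797 on the plus strand, Cd3g at chr9:44980432-44980681 on the minus strand and Lck at chr4:129573642-129573891 on the minus strand.
Lef1: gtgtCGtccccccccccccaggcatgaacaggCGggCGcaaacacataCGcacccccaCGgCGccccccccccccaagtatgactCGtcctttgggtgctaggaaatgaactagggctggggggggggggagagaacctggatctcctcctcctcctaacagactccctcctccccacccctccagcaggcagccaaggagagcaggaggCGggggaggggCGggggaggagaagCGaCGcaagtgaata
Zap70: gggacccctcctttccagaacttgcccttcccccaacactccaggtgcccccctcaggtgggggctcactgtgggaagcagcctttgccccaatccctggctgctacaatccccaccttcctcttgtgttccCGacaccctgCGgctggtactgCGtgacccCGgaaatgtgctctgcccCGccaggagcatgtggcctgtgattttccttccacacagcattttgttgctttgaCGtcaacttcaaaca
Cd3g: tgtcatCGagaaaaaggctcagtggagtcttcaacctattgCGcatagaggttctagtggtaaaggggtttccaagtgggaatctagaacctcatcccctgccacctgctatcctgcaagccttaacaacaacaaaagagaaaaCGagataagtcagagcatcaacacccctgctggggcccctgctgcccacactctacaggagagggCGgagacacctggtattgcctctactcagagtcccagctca
Lck: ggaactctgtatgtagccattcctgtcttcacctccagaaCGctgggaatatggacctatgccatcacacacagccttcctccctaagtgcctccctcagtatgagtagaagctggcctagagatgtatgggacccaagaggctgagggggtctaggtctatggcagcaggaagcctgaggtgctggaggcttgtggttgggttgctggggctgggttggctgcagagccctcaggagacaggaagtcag
Lef1 held 11 CG in its 250 bases, Zap70 held 6, Cd3g held 4 and Lck held 1. The windows of Tcf7 and Bcl11b held 37 and 9 CG. All 250 bases of each lie inside the annotated span, so that they may be exon and not promoter sequence. Those of Cd3e, Cd5 and Cd3d, which overlap the spans in part, held 7, 3 and 0. Every transcription factor window thus held more CG than every receptor or signalling window, beside a median of 10 over 17492 promoters. Of the transcription factor genes, only Lef1 has a window outside its span, so the class contrast is not one between promoters. Corrected for base composition the 2 classes were closer: the observed to expected CG ratio was 1.03 in Tcf7, 0.72 in Bcl11b and 0.40 in Lef1, and 0 (Cd3d) to 0.34 (Cd3e) in the receptor and signalling genes. The median of all promoters was 0.54, so that Lef1 lay below it.

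Start sites of the transcription factor genes were covered in every library. The most upstream listed start of Bcl11b, Tcf7 and Lef1 lay inside an interval in 8 of 8 libraries, which held for 18.6% of the 17492 promoters. Among the receptor and signalling genes, the most upstream start of Cd3e was covered in 8 libraries, that of Cd3g in 6 and that of Cd3d in 3. Those of Lck, Zap70 and Cd5 were covered in none. Lck has 2 listed starts and Zap70 has 3, and in some libraries an interval held a further start of these genes. Cover of further starts was not counted. The share of promoters covered in all 8 libraries was 22.7% where the CG ratio was at least 0.6, as in Tcf7 and Bcl11b, and 15.2% where it was lower, as in the other 7 genes. These shares are a description over genes, which are not replicates.

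**Figure D1:**
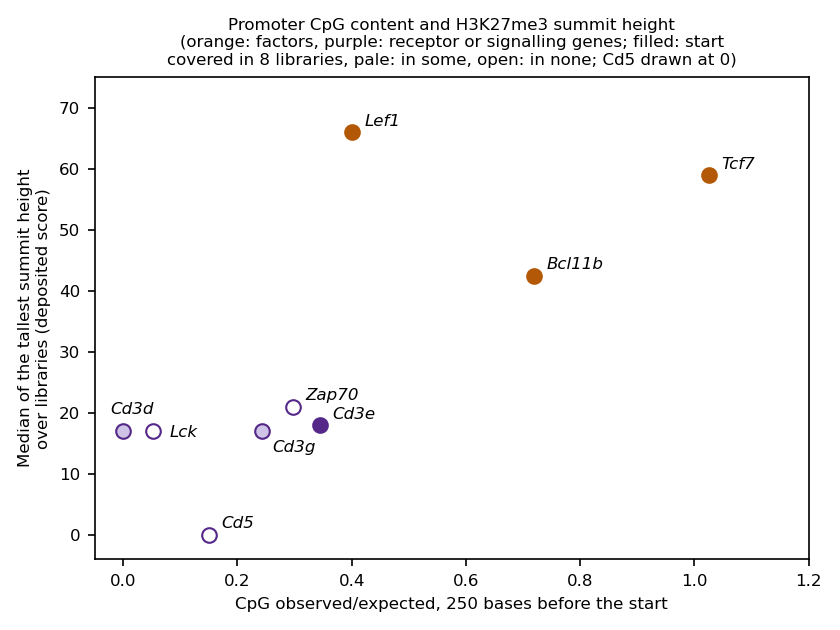
Median of the tallest summit height over 8 libraries (y axis, deposited score without unit) against the observed to expected CG ratio in the 250 bases before the start (x axis) for the 9 genes with a listed promoter. For Tcf7 and Bcl11b these bases lie inside the gene span. The 3 transcription factor genes (orange) lie between 42.5 and 66 on the height axis and have covered starts in 8 libraries; the receptor and signalling genes (purple) lie at 21 or below, with Cd5, which has no interval, drawn at 0.

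Bcl11b, a zinc finger factor that commits thymocytes to the T lineage, carried a domain over its start that reached far into the gene. In the authors' list of regions merged over libraries, which gives the regions below, the domain spanned chr12:107960601-108015000, around the upper end of the gene span (chr12:107910403-108004145, minus strand). The percent covered was 37.2 and 33.7 in RH MET, 30.02 and 37.0 in RH VEH, 40.05 and 42.2 in WT MET, and 44.3 and 36.6 in WT VEH libraries. It was the steadiest of the covered genes, with a mean of 37.6% ± 4.57 (SD, n = 8). The tallest summit had a height of 47 and 39 in RH MET, 25 and 32 in RH VEH, 44 and 56 in WT MET, and 46 and 41 in WT VEH libraries. Both RH VEH values were below all 6 others. The height is the authors' own score, with no unit stated, and may not be comparable between libraries. Ranked among all intervals of its own library, the Bcl11b summit stood at the 80.5th to 89.2nd percentile, and RH VEH 1 lay within the range of the other libraries at 82.9.

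Tcf7, which encodes the factor TCF-1 that opens the T cell programme, had its domain at chr11:52273201-52288400, over the upper end of the span (chr11:52246527-52283383, minus strand). The percent covered was 28.2 and 36.7 in RH MET, 31.6 and 32.9 in RH VEH, 31.2 and 52.5 in WT MET, and 27.3 and 23.5 in WT VEH libraries. WT MET 2, the library with the most covered sequence, stood above the other 7. The tallest summit had a height of 64 and 55 in RH MET, 29 and 44 in RH VEH, 74 and 81 in WT MET, and 42 and 63 in WT VEH libraries. Both WT MET values were the highest, both RH MET values lay above both RH VEH values, and the WT VEH values overlapped with each RH group. How many windows share these orders was not counted, so they cannot be read as a trait of Tcf7. All 4 MET heights lay above all 4 VEH heights in 16.9% of windows with an interval in all 8 libraries. A second, lower region at chr11:52261201-52270600 inside the gene was called in 7 libraries, all but WT VEH 1, with heights of 10 to 22. Its summits lay 16.9 to 17.8 kb into the gene.

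Lef1, a partner of TCF-1 in the same DNA-binding family, had the tallest median summit of the 10 genes. Its main domain lay at chr3:131098601-131123200, over the lower end of the span (chr3:131110297-131224357, plus strand). The height was 69 and 69 in RH MET, 29 and 47 in RH VEH, 67 and 77 in WT MET, and 55 and 65 in WT VEH libraries. Both RH VEH libraries lay below the other 6, and within the libraries the summit stood at the 87.9th to 95.5th percentile. The percent covered was 25.7 and 29.9 in RH MET, 14.1 and 28.8 in RH VEH, 29.6 and 34.9 in WT MET, and 15.4 and 28.6 in WT VEH libraries. RH VEH 1 and WT VEH 1 were low, and the other 6 libraries lay close together. Toward the far end of the gene, 3 lower regions were called, at chr3:131186001-131196400 in 6 libraries, at chr3:131198601-131209400 in 8 and at chr3:131211001-131221600 in 7, with heights of 8 to 17. With only intervals of height 15 or more kept, the mean percent covered of Lef1 was 15.4 in place of 25.9.

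The CD3 genes encode the signalling chains that pair with the T cell receptor, and they lie side by side on chromosome 9, Cd3g (chr9:44969572-44980431), Cd3d (chr9:44981769-44987052) and Cd3e (chr9:44998735-45009663). Merged over libraries, the intervals formed a pair of separate regions, one over Cd3g at chr9:44968601-44983200 and one over Cd3e at chr9:44994001-45018400. Single libraries had 2 intervals here, or 3 in RH MET 1, RH VEH 1 and WT MET 1, where the Cd3e side was split. In RH VEH 1 the split lay inside Cd3e, from 45000200 to 45004601. The stretch between the Cd3g side and the Cd3e side holds most of Cd3d. It was 11.2 to 20.2 kb wide over the libraries, with a median of 15.2 kb, and RH VEH 1 had the widest. The starts of Cd3g and Cd3d are 1355 bp apart, so the windows of both genes share the Cd3g interval and are not independent. Without the flanks, Cd3d kept an interval in 3 libraries and a mean cover of 7.80%, against 92.2% for Cd3g and 94.97% for Cd3e.

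Cd3e was the most fully covered of the 10 windows, with a mean of 80.1% ± 13.6 (SD, n = 8). The percent covered was 74.5 and 77.4 in RH MET, 54.5 and 94.0 in RH VEH, 83.4 and 84.1 in WT MET, and 98.7 and 74.5 in WT VEH libraries. The lowest value was in RH VEH 1 and the highest in WT VEH 1, and the libraries of each vehicle group differed from each other by more than the group means did. The tallest Cd3e summit was low for so broad a region, at 17 and 20 in RH MET, 10 and 18 in RH VEH, 15 and 23 in WT MET, and 19 and 18 in WT VEH libraries. It stood at the 42.9th to 66.6th percentile of its library.

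Cd3g was covered over 44.1% and 53.7% in RH MET, 30.7% and 69.99% in RH VEH, 62.3% and 60.4% in WT MET, and 67.1% and 58.5% in WT VEH libraries. The RH VEH libraries spanned the lowest and the highest value. The summit of the interval that Cd3g and Cd3d share was 17 and 17 in RH MET, 7 and 12 in RH VEH, 17 and 18 in WT MET, and 15 and 18 in WT VEH libraries. Both RH VEH values lay below the other 6, at the 12.3rd and 42.1st percentile of their libraries, against the 52.6th to 62.3rd in the others. Cd3d itself was covered over 13.3% and 30.3% in RH MET, 0% and 42.1% in RH VEH, 38.2% and 31.6% in WT MET, and 39.5% and 27.7% in WT VEH libraries. In RH VEH 1 the Cd3g interval was listed at height 7 and ended before the Cd3d window began.

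Thy1, a surface glycoprotein of mouse T cells, had the tallest median summit of the receptor and signalling genes, at 28.5. A single interval, merged to chr9:44039801-44052400, covered nearly the whole gene span (chr9:44043384-44048579), with a mean of 98.6% when the flanks were left out. With flanks the percent covered was 51.3 and 60.5 in RH MET, 43.4 and 54.0 in RH VEH, 65.8 and 77.7 in WT MET, and 82.9 and 54.0 in WT VEH libraries. The RH values reached 60.5% at most, and 3 of the 4 WT values lay above that. The height was 24 and 28 in RH MET, 20 and 27 in RH VEH, 31 and 43 in WT MET, and 30 and 29 in WT VEH libraries. All 4 RH heights lay below all 4 WT heights. As percentiles of their libraries they ran from 70.7 to 75.6 in RH and from 75.7 to 81.3 in WT, so that the groups met without overlap.

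Lck, the Src-family kinase that starts T cell receptor signalling, was the least covered of the genes with an interval in every library. Its region, chr4:129552601-129562400, lay in the far part of the span (chr4:129548344-129573641, minus strand). The percent covered was 21.5 and 11.9 in RH MET, 9.07 and 9.07 in RH VEH, 20.4 and 25.5 in WT MET, and 18.1 and 5.10 in WT VEH libraries. Metformin libraries were higher than vehicle libraries except that RH MET 2 lay below WT VEH 1. The height was 13 to 23, with a median of 17.

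Zap70, the kinase that binds phosphorylated CD3 chains, had regions at chr1:36763001-36773800 in 8 libraries and at chr1:36778801-36787600 in 7, RH MET 2 being the exception. The percent covered was 14.8 and 28.4 in RH MET, 21.3 and 30.9 in RH VEH, 27.7 and 50.3 in WT MET, and 42.5 and 30.3 in WT VEH libraries. The highest values were in WT MET 2 and WT VEH 1, and the RH and WT ranges overlapped. RH MET 2, without the far region, had the tallest Zap70 summit, at 32, against 11 to 24 in the others.

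Apart from the interval that Cd3g and Cd3d share, no interval of the 10 windows overlapped a neighbouring gene whose span reached the window (Skp1, Ube4a, Fam167b, 4933424G06Rik and Vps37c).

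**Figure D2:**
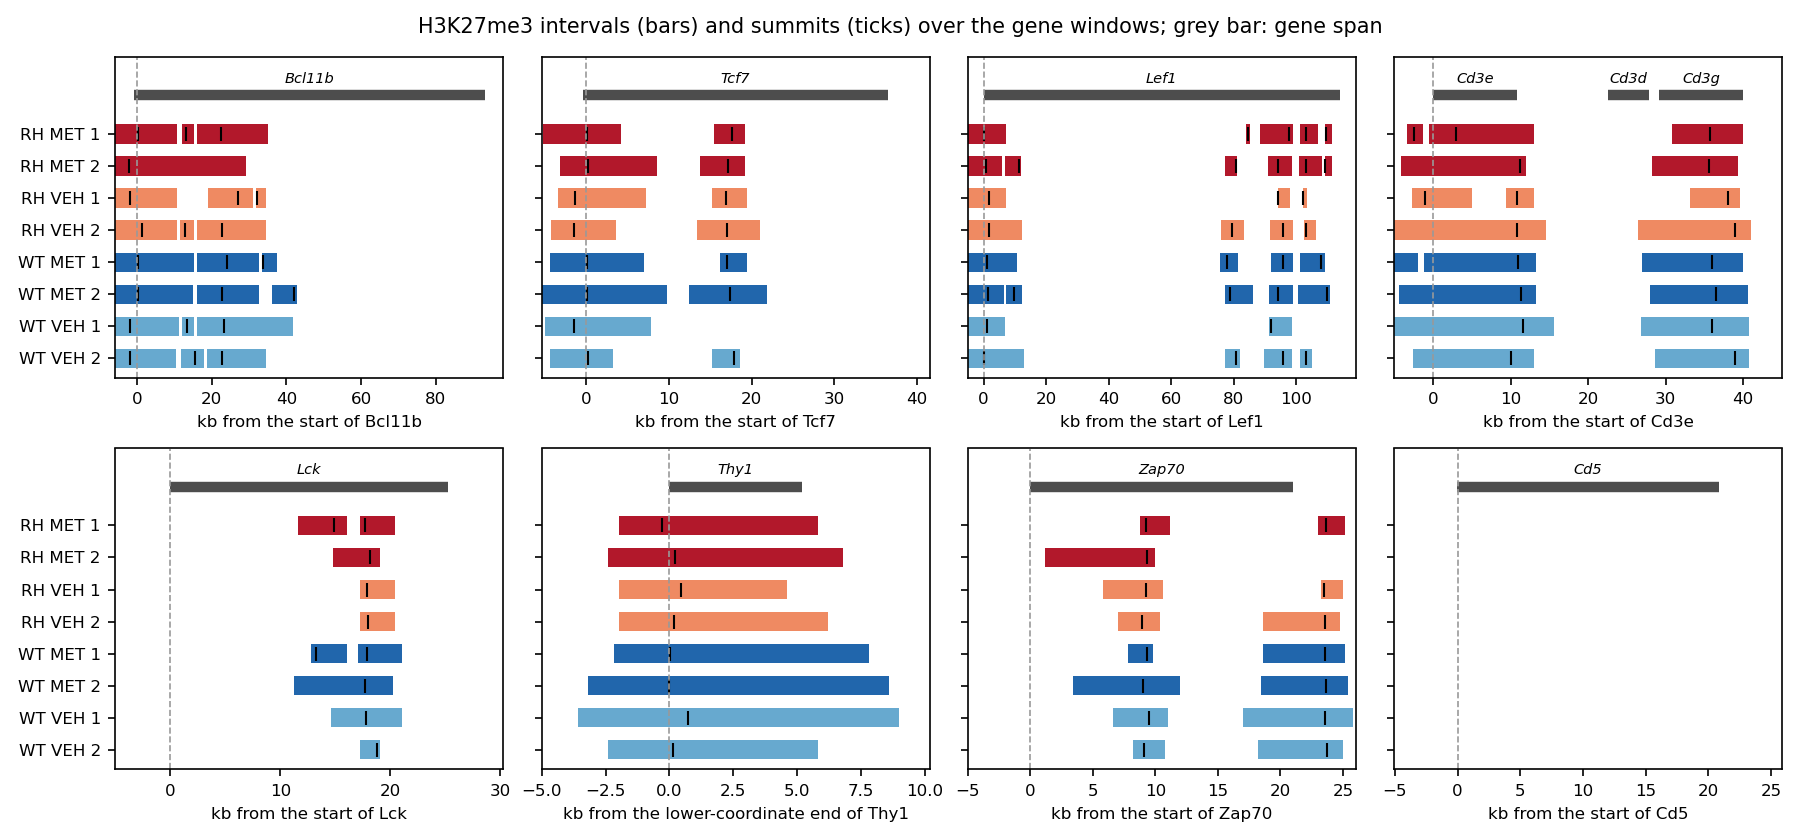
Called H3K27me3 intervals (coloured bars) and their summits (ticks) in each of the 8 libraries, against distance in kb from the most upstream listed start (dashed line) or, for Thy1, from the lower-coordinate end of its span; grey bars are gene spans. The transcription factor genes show a summit within 2.19 kb of the start in all libraries. The CD3 panel shows a gap of 11.2 to 20.2 kb between the Cd3g side and the Cd3e side. Lck and Zap70 show intervals inside or beyond the gene with the most upstream start free, and Cd5 is empty.

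Ordered by mean percent covered, the genes ran Cd3e (80.1), Thy1 (61.2), Cd3g (55.8), Bcl11b (37.6), Tcf7 (33.0), Zap70 (30.8), Cd3d (27.8), Lef1 (25.9), Lck (15.1) and Cd5 (0). Each neighbouring pair in this order overlapped over the libraries, apart from Lck and Cd5. Within libraries, Cd3e exceeded Thy1, Cd3g exceeded Bcl11b and Lck exceeded Cd5 in 8 of 8, Lef1 exceeded Lck in 7, and Thy1 exceeded Cd3g in 6. The other neighbouring pairs held their order in 4 to 6 libraries. The SD over libraries was 4.57 to 14.4 percentage points for the 9 covered genes.

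**Figure D3:**
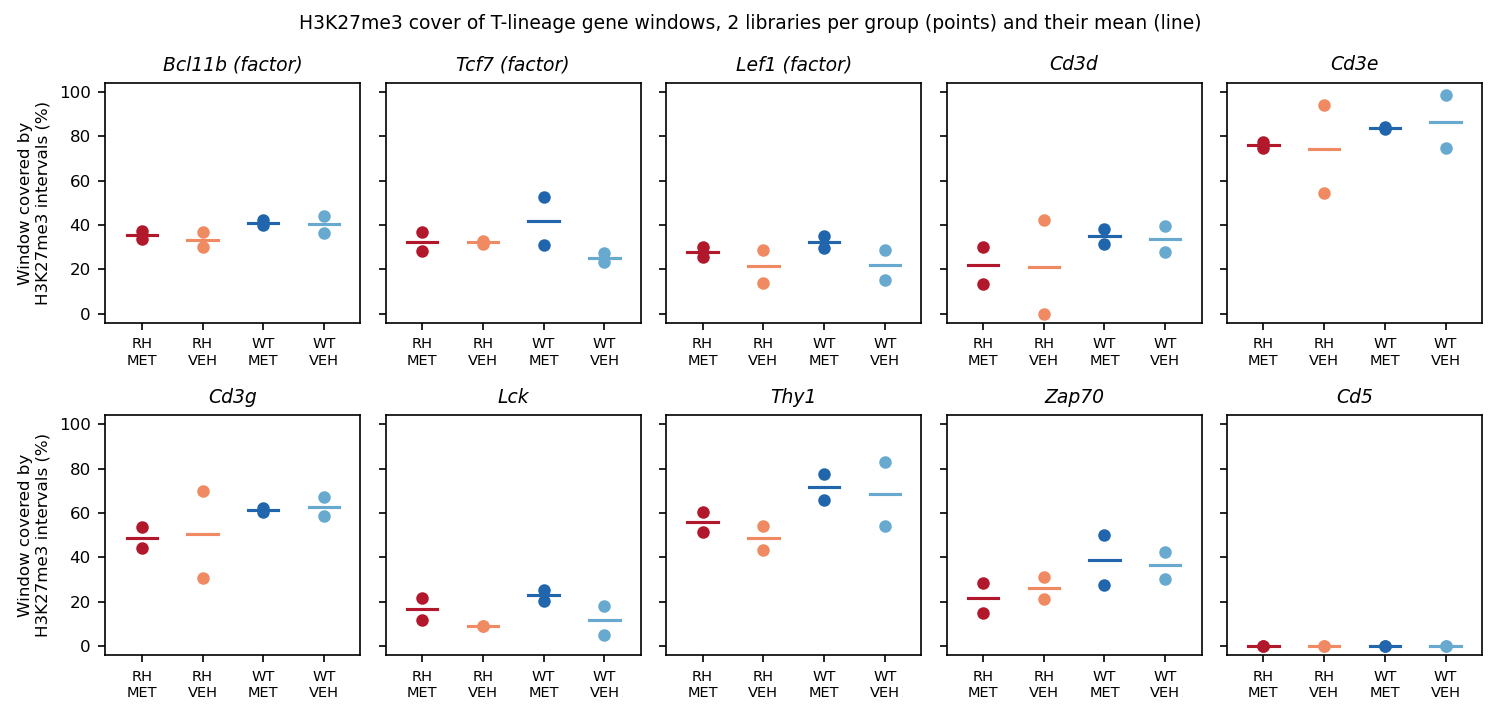
Percent of each gene window (span with 5 kb flanks) covered by H3K27me3 intervals, y axis 0 to 100%, in the groups RH MET, RH VEH, WT MET and WT VEH; points are the 2 libraries of a group and the line is their mean. Bcl11b values sit between 30.02% and 44.3%, Cd3e values between 54.5% and 98.7%, and Cd5 is at 0 throughout.

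The transcription factor genes were set against the receptor and signalling genes within each library, with no test, since genes are not replicates. In 8 of 8 libraries the lowest transcription factor summit was taller than the tallest receptor or signalling summit. Such a separation did not hold in the further gene lists described below. Class means of the height were 60.0 against 19.5 in RH MET 1, 54.3 against 21.8 in RH MET 2, 27.7 against 12.2 in RH VEH 1 and 41.0 against 16.8 in RH VEH 2. They were 61.7 against 20.2 in WT MET 1, 71.3 against 24.8 in WT MET 2, 47.7 against 18.5 in WT VEH 1 and 56.3 against 19.5 in WT VEH 2. The difference was therefore in 1 direction in every library. It averaged 33.3 ± 10.2 (SD, n = 8 libraries), and was smallest in RH VEH 1 at 15.5. With heights ranked within libraries it averaged 29.0 ± 4.53 percentile points, and was largest in RH VEH 1 at 38.8, against 24.4 to 30.8 in the others.

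Percent covered did not separate the classes in the same way. The transcription factor mean was 32.2% ± 5.26 and the receptor and signalling mean 38.7% ± 8.84 (SD, n = 8 libraries), a difference of -6.55 ± 7.06 percentage points. The difference was negative in 7 libraries and 2.54 in RH VEH 1. It depended on the window: without flanks it was -18.9, and with 10000 bp flanks it turned to 1.41. With the CD3 genes counted as 1 locus it was -0.61, and with medians over genes -2.81. The transcription factor spans are the longer ones, and in kb their cover was 11 to 45.9 (median 33.4) against 0 to 20.7 (median 8) for the receptor and signalling genes.

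**Figure D4:**
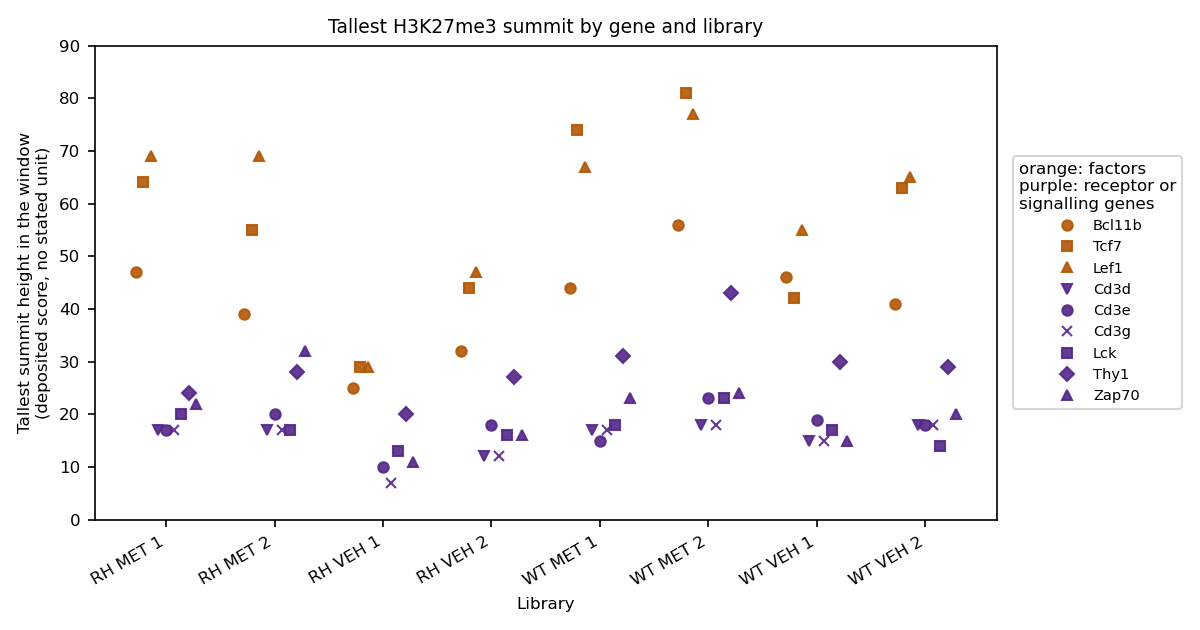
Height of the tallest H3K27me3 summit in each gene window (y axis, deposited score without unit) in the 8 libraries (x axis); orange symbols are the 3 transcription factor genes and purple symbols the receptor and signalling genes with an interval. In each library the orange symbols lie above the purple ones, from 25 to 29 against 7 to 20 in RH VEH 1 to 56 to 81 against 18 to 43 in WT MET 2.

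The position of the tallest summit also differed between the classes among the genes with a listed start and an interval. In the transcription factor genes it lay 0.12 to 2.19 kb from the most upstream start, with a median of 1.03 kb over 24 values from 3 genes and 8 libraries. In the 5 receptor and signalling genes that could be measured it lay 2.87 to 23.7 kb away, with a median of 10.9 kb over 39 values. The Cd3e summit lay up to 11.5 kb from its start, near the far end of the gene, that of Lck 17.7 to 18.8 kb and that of Zap70 8.89 to 23.7 kb. Over the 8133 genes with a listed start and an interval, 45.9% had a median distance of 2.5 kb or less, a limit chosen after the distances were seen. All 3 transcription factor genes and none of the 5 receptor and signalling genes that could be measured fell within it. Measured from the nearest listed start of any transcript, the medians were 0.85 and 6.80 kb, and Lck, which has a second listed start, came to 2.45 to 3.56 kb. Thy1, without a listed start, is not among these values. It had its summit within -0.28 to 0.71 kb of the lower-coordinate end of its span, and which end is its start was not read.

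Percent covered was lower in RH than in WT for 9 of the 9 covered genes, and none of the differences passed the test. Over all 10379 covered windows, 75.7% were lower in RH and 22.3% were higher, so the direction was the common one in these libraries. The median difference was -10.1 percentage points over the 9 genes and -1.87 over all windows. The sizes are not like for like: 3842 of the 10379 windows had an interval in only 1 to 7 libraries, against 1 of the 9 genes. Thy1 averaged 52.3% ± 7.08 in RH and 70.1% ± 12.9 in WT (SD, n = 4 each), a difference of -17.8 (exact two-sided permutation p = 0.0857, adjusted p = 0.804). Without the flanks, where Thy1 was covered almost throughout, the difference was -2.79 (exact permutation p = 1). Bcl11b averaged 34.5% ± 3.36 in RH and 40.8% ± 3.29 in WT (SD, n = 4 each), a difference of -6.31 (exact permutation p = 0.0857, adjusted p = 0.804). Over the 9 genes the exact p ran from 0.0857 to 0.971, where 4 libraries against 4 cannot go below 0.0286. At an unadjusted p under 0.05 there were 0 of 9 genes, against 3.88% of all windows (0.222% higher and 3.66% lower in RH), and after Benjamini-Hochberg adjustment 0 of 9, against 0% of all windows. With that floor and 10379 windows, the adjusted test could hardly call any window. Its 0 does not show that the genotypes are alike. Relative to each library's mean cover, 5 of the 9 genes were lower in RH, and the differences of Bcl11b, Tcf7, Lef1 and Cd3e turned to positive. RH VEH 1, which had the least covered sequence, is 1 of the 4 RH libraries; without it 8 of 9 genes were lower in RH, Lef1 being the exception.

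Metformin and vehicle libraries differed in both directions over the 9 genes, and none of the differences passed the test. Percent covered was higher in MET for 6 genes and lower for 3, beside 64.4% and 33.5% of all windows. The median difference was 1.30 percentage points over the 9 genes and 0.79 over all windows, sizes that are again not like for like. The smallest p belonged to Lck, at 19.8% ± 5.72 in MET and 10.3% ± 5.52 in VEH (SD, n = 4 each), a difference of 9.49 (exact permutation p = 0.0571, adjusted p = 1). The exact p of the other genes ran up to 0.971. At an unadjusted p under 0.05 there were 0 of 9 genes, against 1.19% of all windows (1.04% higher and 0.154% lower in MET), and after adjustment 0 of 9, against 0% of all windows. The adjusted test has the same limit here as for genotype. Cover of Lef1 was 30.03% ± 3.77 in MET and 21.7% ± 8.07 in VEH, and cover of Tcf7 37.1% ± 10.8 in MET and 28.8% ± 4.28 in VEH (SD, n = 4 each); neither passed the test.

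Heights were compared between libraries by counting genes whose groups did not overlap, a count made after the values had been seen and without a test. Thy1 was the 1 gene, of the 8 with an interval in all libraries, whose 4 RH heights lay below its 4 WT heights, as did 1.51% of such windows, and 2.57% when heights were ranked within libraries. No gene had the opposite order, beside 0% of windows, and 0.413% by rank. Zap70 and Lef1 were higher in all 4 MET than in all 4 VEH libraries, as were 16.9% of windows. Ranked within libraries, Zap70 kept this order, with 7.73% of windows, and Lef1 lost it. No gene was lower in all 4 MET than in all 4 VEH libraries, beside 0% of windows, and 0.153% by rank. Zap70 had heights of 22 and 32 in RH MET, 11 and 16 in RH VEH, 23 and 24 in WT MET, and 15 and 20 in WT VEH libraries. Lef1, Cd3g and Bcl11b were lower in both RH VEH libraries than in the other 6, as were 39.7% of windows, and Lef1 and Cd3g were so by rank within libraries, as were 16.5%. Low heights in RH VEH were thus common over the genome.

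In the comparisons of 2 libraries against 2, no permutation p below 0.333 can be reached, and calls were only counted. Between RH VEH and WT VEH, 0 of the 9 windows had an interval in both libraries of a group and in neither of the other, beside 0.455% of windows called only in RH VEH and 2.36% only in WT VEH. Between RH MET and RH VEH the count was again 0, beside 2.76% of windows called only in RH MET and 0.472% only in RH VEH. Between WT MET and WT VEH it was 0, beside 2.27% and 0.391%, and between RH MET and WT MET it was 0, beside 0.786% and 2.25%. Each of the 9 windows had an interval in at least 1 library of every group.

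The percent covered did not overlap between groups for single genes. Tcf7 was higher in RH VEH (31.6 and 32.9) than in WT VEH (27.3 and 23.5), the only gene of the 9 to separate these groups; 3% of windows were higher in this way and 19.4% lower. Lck was higher in RH MET (21.5 and 11.9) than in RH VEH (9.07 and 9.07), as were 13.6% of windows, while 4.38% were lower. Tcf7, Lef1 and Lck were higher in WT MET than in WT VEH, as were 18.6% of windows, while 7.82% were lower. Bcl11b, Cd3d, Cd3e, Cd3g and Thy1 were lower in RH MET than in WT MET, as were 29.3% of windows, while 4.89% were higher. Groups recur in these comparisons, so that they are not independent of each other. With only intervals of height 15 or more kept, Cd3d and Cd3g had no interval in either RH VEH library, where Cd3d had lacked one in RH VEH 1 from the outset, and kept theirs in both libraries of WT VEH and of RH MET. That is 1 shared interval, in the group that holds the library with the lowest heights, and the part of library height in it was not tested. How many of all windows separated these groups at this height was not counted, so it cannot be read as a trait of these genes.

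Other genes of the T cell programme were read in the same way. Of 18 further transcription factor and Notch pathway genes, 14 had an interval in all 8 libraries and 2, Ikzf1 and Foxp3, in none. Ikzf1 encodes Ikaros, which acts in many blood lineages, and Foxp3 the factor of regulatory T cells. Among the most covered were Id3 (mean 100%), an inhibitor of E proteins, the Notch targets Hes1 (99.4%) and Dtx1 (98.9%), Eomes (98.75%) and Tbx21 (79.7%) of effector T cells, Tox2 (86.2%), and Gata3 (65.8%) of early T and helper cells. Of 28 further receptor and signalling genes, 6 had an interval in all 8 libraries and 15 had none in any. The 6 were Cd2 (mean 85.3%), an adhesion receptor, Ccr7 (60.0%), a homing receptor, the coreceptor Cd4 (35.9%), the adaptor Grap2 (27.9%), the T cell receptor zeta chain Cd247 (12.6%) and the Ras activator Rasgrp1 (9.33%). Cd8a, Cd28 and Il7r were among the 15. In the median gene, 27.4% of the window was covered in the transcription factor and Notch list and 0% in the receptor and signalling list, beside 0% over all genes.

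Start sites followed the same split in these lists, which were chosen with earlier results of these data known. The most upstream listed start was covered in all 8 libraries in 9 of 14 further transcription factor and Notch genes. Among further receptor and signalling genes, this held for 1 of 18, Rasgrp1. The position of the tallest summit did not split them: the median distance was 2.5 kb or less in 7 of 12 further transcription factor and Notch genes and in 4 of 7 further receptor and signalling genes with a listed start and an interval. Summit height did not separate them either. Among genes with an interval in all 8 libraries, the median height ran from 16 (Ets1) to 78 (Id3) in the transcription factor and Notch list. In the receptor and signalling list it ran from 16.5 (Ccr7) to 43 (Cd4). In the receptor list, 4 of 28 genes separated groups of 2. Cd7 was covered over 59.7% and 33.0% in RH MET against 0% in both RH VEH libraries, and Fyn over 2.33% and 2.14% against 0%, as 2.76% of windows were called only in RH MET. Cd6 was at 0% in both RH MET libraries against 1.70% and 3.28% in RH VEH (0.472% of windows), and RH VEH stood above WT VEH, where it was at 0% too (0.455% of windows). Sh2d1a was at 0% in RH MET against 45.0% and 1.68% in WT MET (2.25% of windows).

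**Figure D5:**
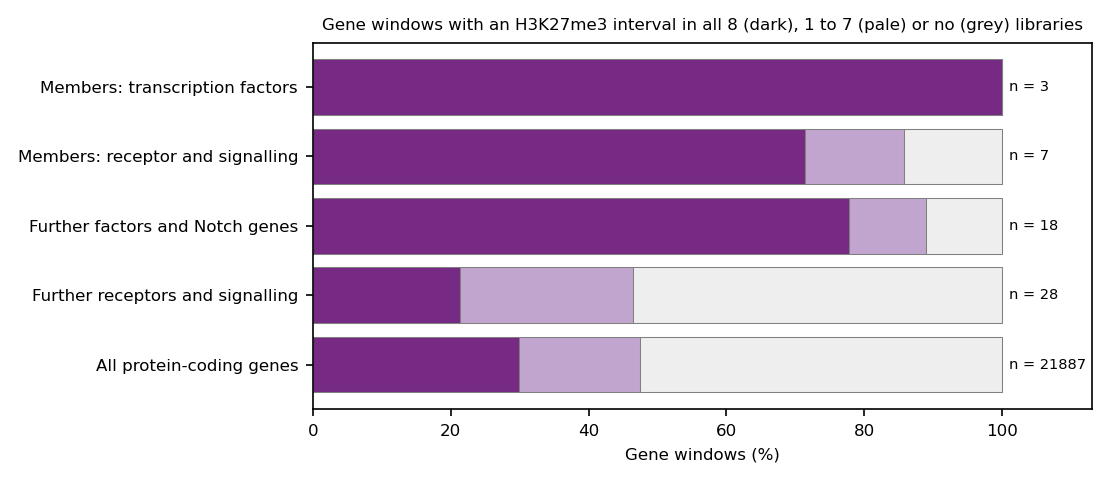
Percent of gene windows (x axis) with an H3K27me3 interval in all 8 libraries (dark), in 1 to 7 (pale) and in none (grey), for the gene lists on the y axis with their number of genes n. The dark share is 3 of 3 and 5 of 7 in the T-lineage transcription factor and receptor genes, 14 of 18 and 6 of 28 in the further lists, and 29.9% over all 21887 genes.

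Likeness of the percent covered was measured as the mean absolute difference over 8 libraries, among 10330 genes outside the lists. The nearest genes to Bcl11b were Fcmr (1.90 percentage points), Wnt2b (2.25) and Agrn (2.32). Among those nearest to Tcf7 were Axin2 (3.25) and Limd2 (3.70), and the one nearest to Lef1 was Gpr176 (3.06). All of them share the libraries, and hence the depth and caller, with the genes they resemble.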

How the data were processed

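H3K27me3 was profiled by chromatin immunoprecipitation sequencing of formaldehyde-fixed LK cells on an Illumina NovaSeq instrument, per the labels' protocols, in 8 libraries beside 1 input library, which was not analysed here. Per the submitters' processing notes, bcl2fastq 2.20, BWA 0.7.12 and the build mm10 were used. Not given in the sources used here are the interval caller, its threshold, the depth and what the input was used for. The deposited tracks list intervals and summits library by library, per the file headers. The height of a summit is a score the authors deposited without a unit. Interval edges lie on a 200 bp grid. Read depth is unknown, so no counting interval was given.

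From these intervals the percent covered, the tallest summit and its percentile among all intervals of the library were computed with Python 3.11.15 and NumPy 2.4.6 for every protein-coding window of RefSeq GRCm38.p6. An overlap of 1 bp counted. Genotype and treatment were compared by an exact two-sided permutation test over the 70 assignments of 4 libraries to 4, in all 10379 windows covered in at least 1 library, with Benjamini-Hochberg adjustment. The test was checked on simulated data. Alternatives were no flank, a 10000 bp flank, a height of at least 15, equal interval numbers, cover of at least 50%, scaling to the library mean, permutation within strata and leaving out each library. The further genes named were those covered in all 8 libraries, at most 8 of a list by mean cover, and those that separated groups of 2. The members and lists were chosen with earlier results of these data known. A few genes that these rules would name are not reported here.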

Additional observations from a re-analysis of the deposited data

Results flagged for a closer look

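In groups of 4 libraries, a highest or lowest value was picked out where its gap to the nearest other value took up nearly the whole range of the group (Dixon's test at its 95% level). Of 70 groups of 4 looked at, 4 were picked out, and chance does so in about 1 in 20. The tallest Thy1 summit was 43 in WT MET 2, against 29 to 31 in the other WT libraries. The tallest summit shared by Cd3d and Cd3g was 18 in WT MET 2, against 17 in each of the other 3 MET libraries, which is a difference of 1 unit. The tallest Cd3e summit was 10 in RH VEH 1, against 18 to 19 in the other 3 VEH libraries. RH VEH 1 had the lowest and WT MET 2 the highest median summit height of the 8 libraries, at 12 and 17, and the part of this in these values was not tested.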

How the results depend on the processing

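The direction of the class difference in summit height, and the 8 of 8 libraries in which every transcription factor summit was the taller, held with no flank and with 10000 bp flanks. The other alternatives could not have changed them and show nothing on this point. The order is read within each library, so leaving out 1 library leaves the order in the remaining 7 as it was. Keeping only the taller intervals, or ranking heights within a library, cannot put a lower summit above a taller one. Leaving out each library gave differences of 31.4 to 35.9. For percent covered the class difference was -7.84 to -4.50 on leaving out each library, -13.0 without Cd5, -2.81 with medians over genes, -0.61 with the CD3 genes as 1 locus, -18.9 with no flank and reversed to 1.41 with 10000 bp flanks. The median distance of the receptor and signalling summits was 6.80 kb from the nearest listed start. With a height of at least 15, RH VEH and WT VEH were separated by 2 genes and RH MET and RH VEH by 2, and the share of all windows so separated was not counted. Without RH VEH replicate 2, each of these comparisons had 1 such gene, Cd3d, and leaving out each other library gave 0. Relative to the library mean, 5 genes were lower in RH, and the Bcl11b difference was reversed to 0.41 percent of the mean cover (exact permutation p = 0.971). Leaving out each library, 7 to 9 genes were lower in RH and 4 to 9 higher in MET, and no gene passed the adjusted test. That test could hardly call any gene. Without WT VEH replicate 2, Bcl11b and Thy1 had an unadjusted exact permutation p of 0.0286, the smallest possible in that run. How many of all windows reached it there was not counted. On leaving out each other library, the exact permutation p was 0.0857 to 0.171 for Bcl11b and 0.0857 to 0.143 for Thy1. The replicate block has 36 assignments and a smallest possible p of 0.0556. Its count of 0 genes for genotype and 0 for treatment was therefore fixed in advance and shows nothing. The exact permutation p there was 0.111 for Bcl11b, 0.167 for Thy1 and 0.0556, the smallest possible, for Lck. Labels share only a number, and deviations of same-numbered libraries correlated at -0.02 to 0.23. The causes were not tested. The unknown depth and the caller's threshold limit what an absent interval shows.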
